A study of Mus musculus with 8 samples.

Results

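The subunit genes of the ionotropic and metabotropic glutamate receptors and of the GABA-A receptors were followed in the hippocampus of Tg6799 mice and their littermates. Members were all genes of the probe annotation whose symbol begins with Gria, Grik, Grin, Grm, Gabra, Gabrb, Gabrg or Gabrr and goes on with a number, together with Gabrd. Only probe sets with 1 symbol were used, and each gene was read from its brightest one by the mean of the 8 arrays. This gave 33 of the 18193 genes measured, covered by 70 probe sets, of which 12 genes had 1 probe set and 21 had several. Some genes of these families were not analysed here. Each RNA sample was measured on its own Affymetrix mouse genome array, and all mice were female. MT animals carry mutant human APP and PS1 transgenes under the neuronal Thy1 promoter, LM animals are littermate controls, and both were taken at 4 and 8 months of age. The groups LM4m, MT4m, LM8m and MT8m hold 2 arrays each. Nothing in the labels states that a group's samples are separate animals, so p-values cover only the spread of these samples, and part of it may be technical.

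Glutamate acts on AMPA, kainate and NMDA receptors, which are tetrameric cation channels, and on metabotropic receptors, which signal through G proteins. GABA-A receptors are pentameric chloride channels that carry fast inhibition, and their subunit mix sets where they sit and how they respond. In the hippocampus AMPA receptors carry most fast excitation, NMDA receptors gate plasticity, and GABA-A receptors with alpha5 or delta subunits carry much of the tonic inhibition.

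The array labelled MT8m replicate 1 went against its label in Thy1 and microglial marker genes, but not in choroid plexus marker genes. The latter averaged -1.06 on it, at the level of the other MT arrays, against 0.63 to 1.86 on the LM arrays. Thy1, whose promoter drives the transgenes, lay between 1.18 and 1.27 log2 units above its 8-array mean on the other 3 MT arrays and between -1.02 and -0.59 on the LM arrays, while MT8m replicate 1 lay at -0.65. The 12 microglial marker genes averaged -0.79 on that array against 2.00 on MT8m replicate 2, each relative to the gene's mean. The subunits' genotype differences averaged over ages are therefore given with and without it, as are the main 8-month values, and those without it rest on a choice made from these marker genes. Other values are from all 8 arrays unless stated. LM4m replicate 1 also stood apart, with a difference between the 3′ and 5′ control probe sets of Gapdh of 2.19 against at most 1.42 elsewhere. The 10 meningeal marker genes were high on that array and on LM8m replicate 2, at 1.01 and 1.13. Of the hippocampal marker genes, 7 of 8 for dentate gyrus and 10 of 10 for Ammon's horn lay above the median of the probe sets. So did 8 of 8 neocortical and 9 of 9 choroid plexus marker genes, so this does not establish the region.

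Of the 33 subunits, 28 lay above the median of all probe sets, and the 5 below it were Grin2a, Grm8, Gabra6, Gabrr1 and Gabrr2. Differences are given as MT minus LM, or as 8 minus 4 months, on the log2 scale with the SE of the limma fit. The directions by genotype are opposite to those in the study's published gene lists, where LM and MT are exchanged relative to the labels used here, whereas Thy1 goes with these labels on 7 of the 8 arrays. In bulk tissue, fewer cells of a type and less RNA per cell cannot be told apart.

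No subunit passed an adjusted p under 0.05 in limma between the genotypes. Over all probe sets 0% passed at 4 months, 0.02% at 8 months, 0.06% for the genotype difference averaged over ages and 0.0133% in the F test over the 4 groups. At an unadjusted p under 0.05, MT4m was higher than LM4m for 1 of 33 subunits (Gabra2, background 1.78%) and lower for 2 (Grm2 and Gabra3, background 3.08%). At 8 months 1 was higher (Grik4, background 1.6%) and 2 were lower (Gabra6 and Gabrg1, background 1.79%). Averaged over ages, Grik4 was higher (background 2.54%) and Gria4, Grm2, Grm3, Gabra3 and Gabrg1 were lower, which is 5 of 33 against 3.22% of all probe sets. This count of subunits changed when some single arrays were left out, and the share of all probe sets was not computed for those fits. The F test was below 0.05 for 4 subunits, Grin3a, Grm2, Gabra2 and Gabrg1, against 4.89% of all probe sets. The median genotype difference averaged over ages was -0.081 over the 33 subunits and -0.012 over all genes, with 18 subunits negative and 15 positive, where 53.5% of all genes were negative.

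**Figure D1:**
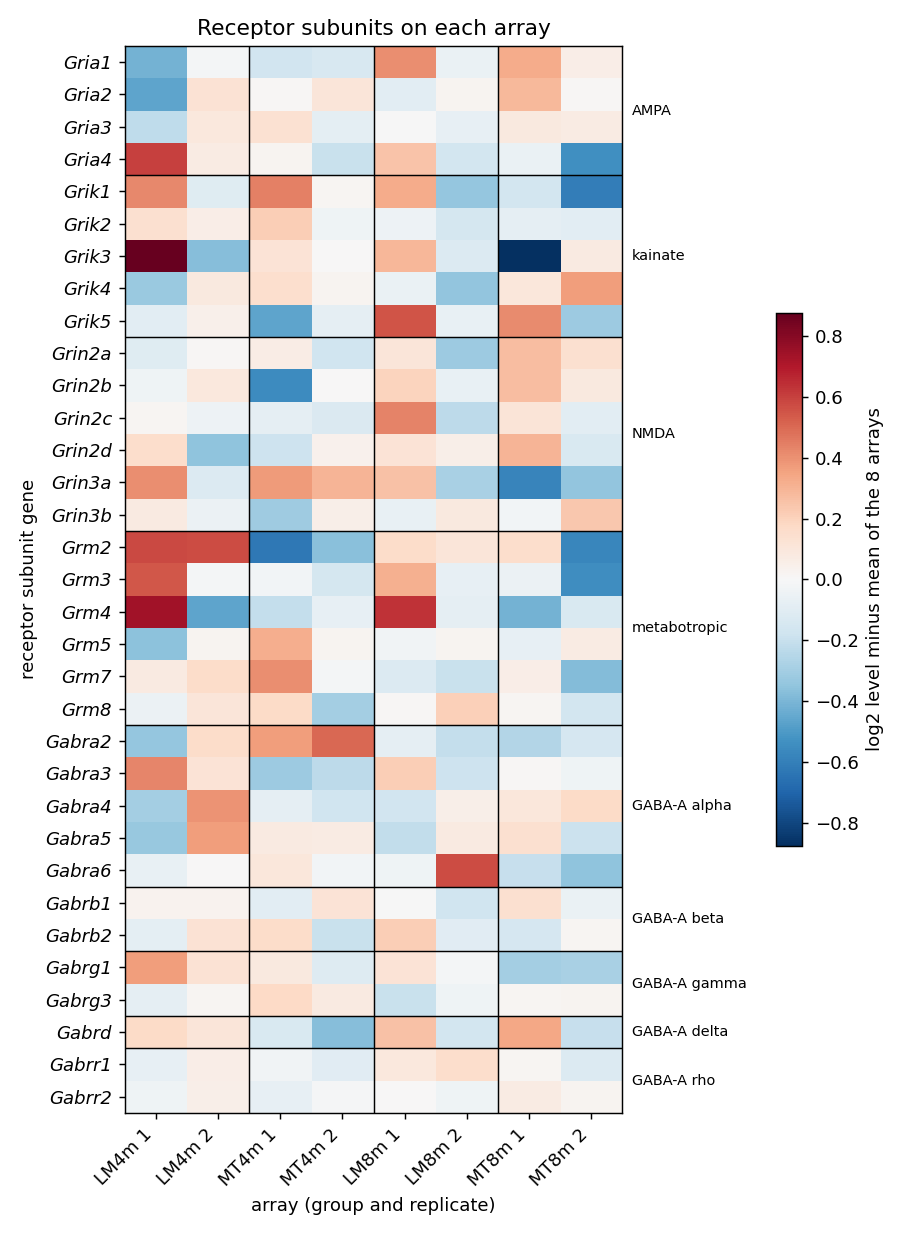
Log2 level of each of the 33 subunit genes (rows, by receptor family) on each of the 8 arrays (columns) minus the gene's mean over the arrays. Arrays of 1 group often differ in colour, as for Grik3 on MT8m replicates 1 and 2, while Grm2 is high on both LM4m arrays and low on both MT4m arrays.

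With MT8m replicate 1 left out, Grm2 passed for the genotype difference averaged over ages, as 1 of 33 subunits against 0.315% of all probe sets. The share passing over all probe sets was then 0.211% at 8 months and 0.129% in the F test, with no subunit among them. At an unadjusted p under 0.05 Grik4 was higher at 8 months (background 3.45%) and Grm2, Grm3 and Gabra6 were lower (background 3.07%). Averaged over ages Grik4 was again higher (background 3.69%), and Gria4, Grm2, Grm3, Gabrg1 and Gabrd were lower (background 4.38%). Grm2 and Gabra2 had an F test below 0.05, where 6.59% of all probe sets did. The median difference averaged over ages was then -0.070, against -0.018 over all genes, with 23 subunits negative and 10 positive, where 54.5% of all genes were negative. The sign of 7 subunits changed between the fits, namely Gria1, Grik2, Grin2d, Grin3b, Grm7, Gabra5 and Gabrr2.

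Groups of 2 arrays that did not overlap were common in this design, so such counts are read against all probe sets. MT4m lay above LM4m for 2 subunits (17.1% of all probe sets) and below for 7 (19.1%), and MT8m lay above LM8m for 6 (15.2%) and below for 5 (13.1%). Over both ages, all 4 MT arrays lay above all 4 LM arrays for Gabrg3 (background 1.46%), and below for no subunit (background 1.81%). Gabrg3, a gamma subunit, lay just above the median of the probe sets. Its difference was 0.15 ± 0.087 (SE) with all arrays and 0.15 ± 0.10 without MT8m replicate 1. The dimmer Gabrg3 probe sets gave 0.033, 0.037 and -0.070, and in each the MT and LM arrays overlapped.

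Among AMPA receptor subunits, no genotype difference was resolved for Gria1, Gria2 or Gria3. Gria2 encodes the subunit that keeps the channel from passing calcium. It measured 9.51 and 10.10 in LM4m, 9.98 and 10.08 in MT4m, 9.88 and 9.995 in LM8m, and 10.26 and 9.98 in MT8m. The arrays overlapped, with LM4m replicate 1 the lowest, and the averaged genotype difference of 0.20 had a 95% interval from -0.12 to 0.52 and was 0.13 without MT8m replicate 1. Gria1, the subunit added to synapses in potentiation, had an averaged genotype difference of 0.036 (interval -0.28 to 0.36), or -0.030 without that array, and Gria3 one of 0.10 (interval -0.14 to 0.34), or 0.10 without it.

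By age, Gria1 measured 8.95 and 9.34 in LM4m, 9.19 and 9.22 in MT4m, 9.77 and 9.30 in LM8m, and 9.68 and 9.42 in MT8m. Both MT8m arrays lay above both MT4m arrays, while the LM arrays of the 2 ages overlapped. The averaged age difference was 0.37 ± 0.14 (SE), with an unadjusted p of 0.0284 and an adjusted p of 0.711 in limma, and it was 0.30 ± 0.16 without MT8m replicate 1. A second probe set of Gria1 gave 0.25. For Gria2 the age difference was 0.11 in the probe set used, -0.022 in a second probe set and 0.56 in another, so its probe sets disagreed.

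Gria4, the AMPA subunit known from interneurons and from fast-spiking cells, was lowest on MT8m replicate 2. It measured 6.63 and 6.10 in LM4m, 6.05 and 5.83 in MT4m, 6.28 and 5.87 in LM8m, and 5.97 and 5.49 in MT8m. MT4m lay below LM4m, and the groups overlapped at 8 months. The averaged difference was -0.38 ± 0.17 (SE), with an unadjusted p of 0.0497 and an adjusted p of 0.853, and -0.50 ± 0.17 without MT8m replicate 1. It was -0.25 without LM4m replicate 1, and the dimmer Gria4 probe sets gave -0.034 and -0.28. The 10 interneuron marker genes, all above the median of the probe sets, averaged between 0.11 and 0.26 on the LM arrays and between -0.47 and 0.0070 on the MT arrays, with MT8m replicate 2 the lowest. Their part in the Gria4 difference was not tested.

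Among kainate receptor subunits, Grik4 had the smallest unadjusted p by genotype. Grik4, a high-affinity subunit known from CA3 mossy fibre synapses, measured 4.64 and 5.05 in LM4m, 5.11 and 4.99 in MT4m, 4.91 and 4.62 in LM8m, and 5.07 and 5.33 in MT8m. MT8m lay above LM8m, and the 4-month groups overlapped. The difference was 0.44 ± 0.18 (SE) at 8 months and 0.32 ± 0.13 over both ages, with unadjusted p of 0.0405 and 0.0351 and adjusted p of 1.00 and 0.853. Without MT8m replicate 1 they were 0.57 ± 0.22 and 0.39 ± 0.14.

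Grik1 encodes a low-affinity kainate subunit known from interneurons. It measured 4.12 and 3.69 in MT4m and 3.52 and 3.07 in MT8m, so the 2 ages did not overlap in MT, and 4.10, 3.57, 4.00 and 3.34 on the LM arrays. The age difference in MT was -0.61 ± 0.28 (SE), with an adjusted p of 0.870, and -0.83 ± 0.34 without MT8m replicate 1. Grik2, the most studied low-affinity subunit, was the only one whose 4 arrays at 8 months (5.40 to 5.51) all lay below its 4 arrays at 4 months (5.52 to 5.77), by 0.19 ± 0.094, where 2.01% of all probe sets were separated in this way. No subunit was separated in the other direction (background 1.71%). Grik3 varied most of all 33 subunits, over a range of 1.75, with extremes on LM4m replicate 1 and MT8m replicate 1. Its averaged genotype difference of -0.34 had an interval from -1.004 to 0.33, and without MT8m replicate 1 it was -0.096 (interval -0.77 to 0.58). Grik5, the other high-affinity subunit, gave -0.22 (interval -0.67 to 0.23), or -0.41 ± 0.18 (SE) without that array. The averaged genotype difference of Grik1 was -0.15, or -0.26 without it, and that of Grik2 was 0.0018, or -0.0017 without it.

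No NMDA receptor subunit separated the MT from the LM arrays over both ages, and the averaged genotype differences of the 6 lay between -0.13 and 0.15, or between -0.14 and 0.12 without MT8m replicate 1. Grin2b, the subunit that dominates early in development, measured 7.03 and 7.16 in LM4m, 6.51 and 7.07 in MT4m, 7.26 and 7.003 in LM8m, and 7.34 and 7.15 in MT8m. MT4m replicate 1 was the low array. The averaged genotype difference was -0.097 (interval -0.41 to 0.22), or -0.14 without MT8m replicate 1, and the age difference in MT was 0.46 ± 0.20 (SE), with an unadjusted p of 0.0468 and an adjusted p of 0.870. That age difference was 0.36 ± 0.24 without MT8m replicate 1 and 0.13 with the mean of all Grin2b probe sets.

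Grin2a, the subunit that rises as synapses mature, lay below the median of the probe sets on every array. It measured 2.01 and 2.12 in LM4m, 2.17 and 1.94 in MT4m, 2.22 and 1.79 in LM8m, and 2.38 and 2.25 in MT8m, and a level near the bottom of the scale limits what its differences can show. Its averaged genotype difference was 0.15 (interval -0.12 to 0.43), or 0.12 without MT8m replicate 1. Grin2c gave -0.090 (interval -0.42 to 0.24), or -0.14 without that array. Grin2d, a subunit known from interneurons, gave 0.011 (interval -0.32 to 0.34), or -0.096 without it, and Grin3b gave -0.027 (interval -0.29 to 0.24), or 0.038 without it.

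Grin3a encodes a glycine-binding subunit that lowers calcium flow through NMDA receptors and is most abundant in juvenile brain. It measured 5.23 and 4.70 in LM4m, 5.20 and 5.12 in MT4m, 5.08 and 4.54 in LM8m, and 4.24 and 4.48 in MT8m. Both MT8m arrays lay below all other arrays, and the LM groups overlapped. The age difference was -0.80 ± 0.22 (SE) in MT, a ratio of 0.574, with an unadjusted p of 0.00668 and an adjusted p of 0.851. In LM it was -0.16 ± 0.22, and the interaction of -0.64 ± 0.32 had an adjusted p of 1.00, so the age differences of the genotypes were not shown to differ. The age difference in MT was -0.68 ± 0.28 without MT8m replicate 1. A second probe set of Grin3a gave -0.55 in MT. The averaged genotype difference of Grin3a was -0.13 with all arrays and -0.070 without MT8m replicate 1.

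**Figure D2:**
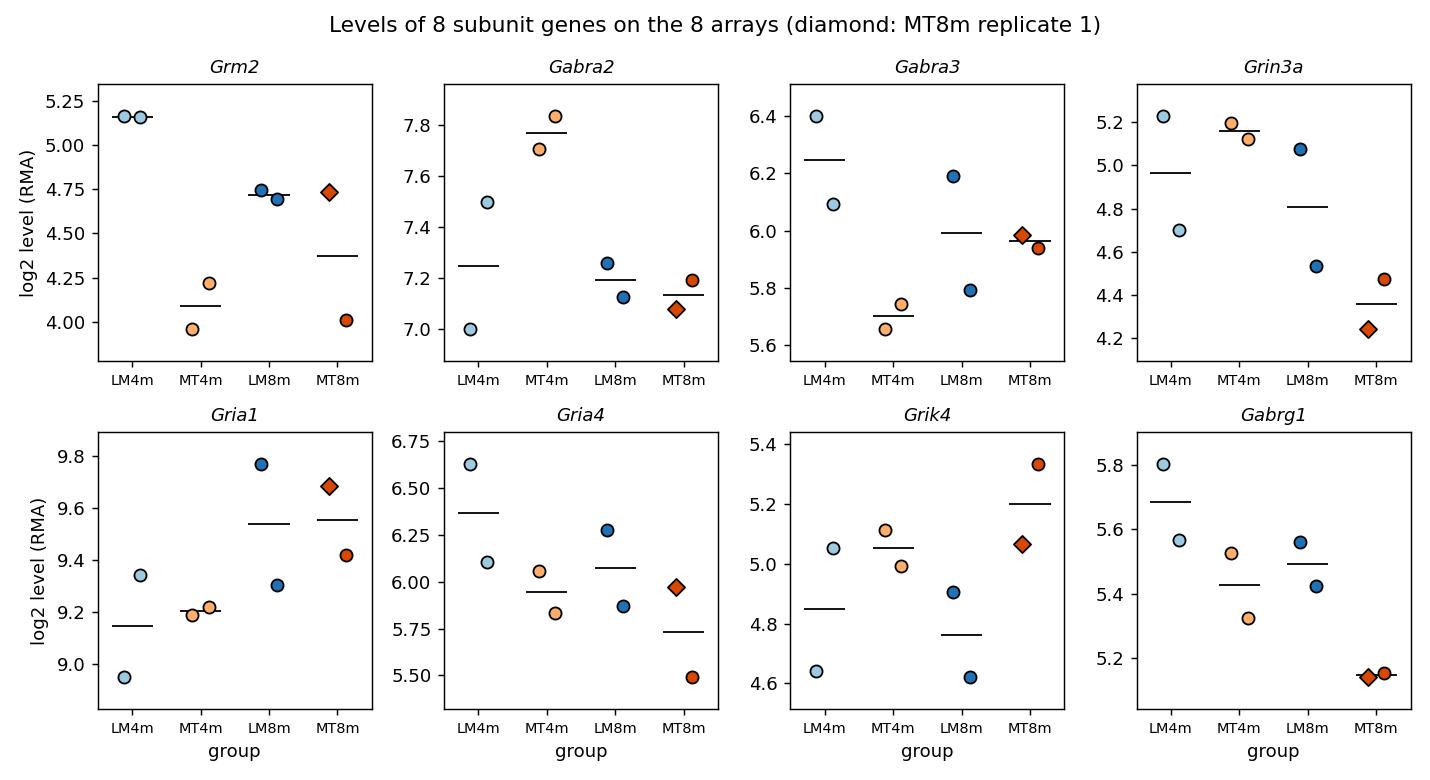
Log2 level (RMA) of 8 subunit genes on each array, by group, with a bar at the mean of the 2 arrays and a diamond for MT8m replicate 1. Axes start above 0 and differ between panels. The Grm2 value of MT8m replicate 1 (4.74) sits with LM8m (4.69 and 4.75) and apart from MT8m replicate 2 (4.01).

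Grm2 had the smallest genotype p of the 33 subunits. It encodes a presynaptic receptor coupled to inhibitory G proteins that lowers glutamate release. Its levels were 5.17 and 5.16 in LM4m, 3.96 and 4.22 in MT4m, 4.75 and 4.69 in LM8m, and 4.74 and 4.01 in MT8m. All LM arrays lay at 4.69 or above and 3 of the 4 MT arrays at 4.22 or below, the exception being MT8m replicate 1.

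At 4 months the Grm2 difference was -1.07 ± 0.22 (SE), a ratio of MT to LM of 0.475, with an unadjusted p of 0.00105 and an adjusted p of 0.811. At 8 months it was -0.35 ± 0.22 with an adjusted p of 1.00. The average over ages was -0.71 ± 0.16, with an unadjusted p of 0.0016 and an adjusted p of 0.482. Without MT8m replicate 1, the 8-month difference was -0.71 ± 0.16 with an adjusted p of 0.303, and the average was -0.89 ± 0.11 with an adjusted p of 0.0261 in limma, the only subunit that passed. That pass rests on leaving out an array for its marker genes. The interaction of Grm2 was 0.73 ± 0.31 with all arrays and 0.36 ± 0.21 without that array, with adjusted p of 1.00 in both fits.

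Marker genes of other cells and regions were read on the same arrays. The 9 choroid plexus marker genes averaged from 0.63 to 1.86 on the LM arrays and from -1.25 to -0.997 on all 4 MT arrays, MT8m replicate 1 included. The 8 neocortical marker genes averaged from -0.11 to 0.56 on LM and from -0.30 to 0.040 on MT arrays, and the 8 dentate gyrus genes from -0.20 to 0.37 and from -0.18 to 0.11. Of these 3 lists, the choroid plexus list separated the genotypes, and the neocortical and dentate gyrus lists overlapped. Outside these 3, the interneuron list also separated them. So did the striatal list, at 0.076 to 0.12 on LM and -0.20 to 0.011 on MT arrays. Their part in the Grm2 difference was not tested.

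Grm3, the other member of the same receptor group and known from astrocytes as well as neurons, measured 8.03 and 7.47 in LM4m, 7.46 and 7.33 in MT4m, 7.80 and 7.42 in LM8m, and 7.43 and 6.94 in MT8m. MT4m lay just below LM4m, and MT8m overlapped with LM8m. The average over ages was -0.39 ± 0.17 (SE), with an unadjusted p of 0.047 and an adjusted p of 0.853. It was -0.51 ± 0.17 without MT8m replicate 1 and -0.25 without LM4m replicate 1. The 10 astrocyte marker genes averaged 0.82 on MT8m replicate 2, the array with the lowest Grm3, and between -0.38 and 0.073 on the other arrays, and their part was not tested.

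Grm5, the main postsynaptic metabotropic receptor of the pyramidal cells, measured 8.09 and 8.47 in LM4m, 8.77 and 8.47 in MT4m, 8.42 and 8.47 in LM8m, and 8.38 and 8.52 in MT8m. Its averaged genotype difference was 0.17 (interval -0.10 to 0.44), or 0.20 without MT8m replicate 1. A second Grm5 probe set gave -0.18. Grm7, a presynaptic receptor of active zones, measured from 6.85 to 7.28 at 4 months and from 6.49 to 6.92 at 8 months. Its averaged age difference was -0.32 ± 0.13 (SE), with an unadjusted p of 0.0426 and an adjusted p of 0.753, and -0.43 ± 0.13 without MT8m replicate 1. With the mean of all Grm7 probe sets it was -0.14. Its averaged genotype difference was 0.038, or -0.070 without MT8m replicate 1. The presynaptic receptors Grm4 and Grm8 gave averaged genotype differences of -0.41 (interval -1.01 to 0.18) and -0.14 (interval -0.43 to 0.15), or -0.34 and -0.18 without that array.

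Among the GABA-A alpha subunits, Gabra2 and Gabra3 differed between LM4m and MT4m in opposite directions, and both 8-month differences were near 0. Gabra2, the alpha subunit of the axon initial segment and of many perisomatic synapses, measured 7.0 and 7.5 in LM4m, 7.71 and 7.84 in MT4m, 7.26 and 7.13 in LM8m, and 7.08 and 7.19 in MT8m. Both MT4m arrays were above the other 6. The 4-month difference was 0.52 ± 0.17 (SE), a ratio of 1.44, with an unadjusted p of 0.0164 and an adjusted p of 0.944, and it was 0.27 without LM4m replicate 1. Another pair of Gabra2 probe sets gave 0.94 and 1.28. In both, LM4m replicate 1 lay far below LM4m replicate 2, at 5.74 against 6.75 and at 4.04 against 5.72. The dimmest Gabra2 probe sets gave 0.25 each. The average over ages was 0.23 with all arrays and 0.26 without MT8m replicate 1.

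With age, Gabra2 differed by -0.64 ± 0.17 (SE) in MT, with an unadjusted p of 0.00599 and an adjusted p of 0.844, and by -0.057 ± 0.17 in LM. The interaction was -0.58 ± 0.25, with an unadjusted p of 0.0454 and an adjusted p of 1.00. Without MT8m replicate 1 the age difference in MT was -0.58 ± 0.22 and the interaction -0.52 ± 0.29.

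Gabra3, an alpha subunit known from monoaminergic and some cortical neurons, measured 6.40 and 6.09 in LM4m, 5.65 and 5.74 in MT4m, 6.19 and 5.79 in LM8m, and 5.98 and 5.94 in MT8m. The 4-month groups did not overlap and the 8-month groups did. The difference was -0.55 ± 0.17 (SE) at 4 months, with an unadjusted p of 0.011 and an adjusted p of 0.944, and -0.029 ± 0.17 at 8 months. The interaction of 0.52 ± 0.24 had an adjusted p of 1.00. With the mean of all Gabra3 probe sets the 4-month difference was -0.36. The average over ages was -0.29 ± 0.12 with all arrays and -0.30 ± 0.14 without MT8m replicate 1.

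Gabra5, the alpha subunit of extrasynaptic receptors on pyramidal cells, did not differ beyond its spread in any contrast. It measured 7.18 and 7.88 in LM4m, 7.59 and 7.58 in MT4m, 7.30 and 7.59 in LM8m, and 7.65 and 7.32 in MT8m, and LM4m held both the lowest and the highest array. The averaged genotype difference was 0.052 (interval -0.32 to 0.42), or -0.030 without MT8m replicate 1. Gabra4, which pairs with delta in dentate granule cells, gave 0.0071 (interval -0.34 to 0.35), or 0.025 without it. Gabra6, the alpha subunit of cerebellar granule cells and a cerebellar marker here, lay below the median of the probe sets, at 1.80 and 1.88 in LM4m and 1.97 and 1.85 in MT4m. Its 8-month difference of -0.55 ± 0.19 (SE), with an unadjusted p of 0.0215 and an adjusted p of 1.00, set 1.67 and 1.52 in MT8m against 1.83 and 2.45 in LM8m, and it was -0.24 without LM8m replicate 2 and -0.62 without MT8m replicate 1. A second, dimmer Gabra6 probe set gave -0.0067 at 8 months. Averaged over ages, the difference in the probe set used was -0.24, or -0.28 without MT8m replicate 1.

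The beta subunits, which hold the GABA binding site together with alpha, had narrow ranges. Gabrb1 ranged from 9.02 to 9.34 over the 8 arrays and Gabrb2 from 8.00 to 8.41. Their averaged genotype differences were 0.056 (interval -0.17 to 0.28) and -0.081 (interval -0.36 to 0.20), or 0.0051 and -0.041 without MT8m replicate 1.

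Gabrg1, a gamma subunit known from glia and some neurons, measured 5.80 and 5.57 in LM4m, 5.53 and 5.32 in MT4m, 5.56 and 5.42 in LM8m, and 5.14 and 5.15 in MT8m. MT lay below LM at each age, and MT8m held the lowest arrays. The averaged genotype difference was -0.30 ± 0.099 (SE), with an unadjusted p of 0.0148 and an adjusted p of 0.817, and -0.30 ± 0.11 without MT8m replicate 1. The averaged age difference was -0.24 ± 0.099, with an adjusted p of 0.756. A second, dimmer Gabrg1 probe set gave 0.056 for genotype. In the RefSeq annotation Gabrg1 and Gabra2 are neighbours, and their averaged genotype differences were -0.30 and 0.23.

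Gabrd, the delta subunit of extrasynaptic receptors in dentate granule cells, measured 4.72 and 4.66 in LM4m, 4.42 and 4.18 in MT4m, 4.81 and 4.39 in LM8m, and 4.89 and 4.35 in MT8m. MT4m lay below LM4m by 0.39 on the log2 scale, and the 8-month arrays overlapped. The averaged difference was -0.19 (interval -0.52 to 0.15), and -0.32 ± 0.14 (SE) without MT8m replicate 1, which had the highest Gabrd of all arrays. The rho subunits Gabrr1 and Gabrr2, known from retina, lay below the median of the probe sets and ranged over 0.27 and 0.14. Their averaged genotype differences were -0.11 and 0.0070, or -0.15 and -0.0056 without MT8m replicate 1.

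**Figure D3:**
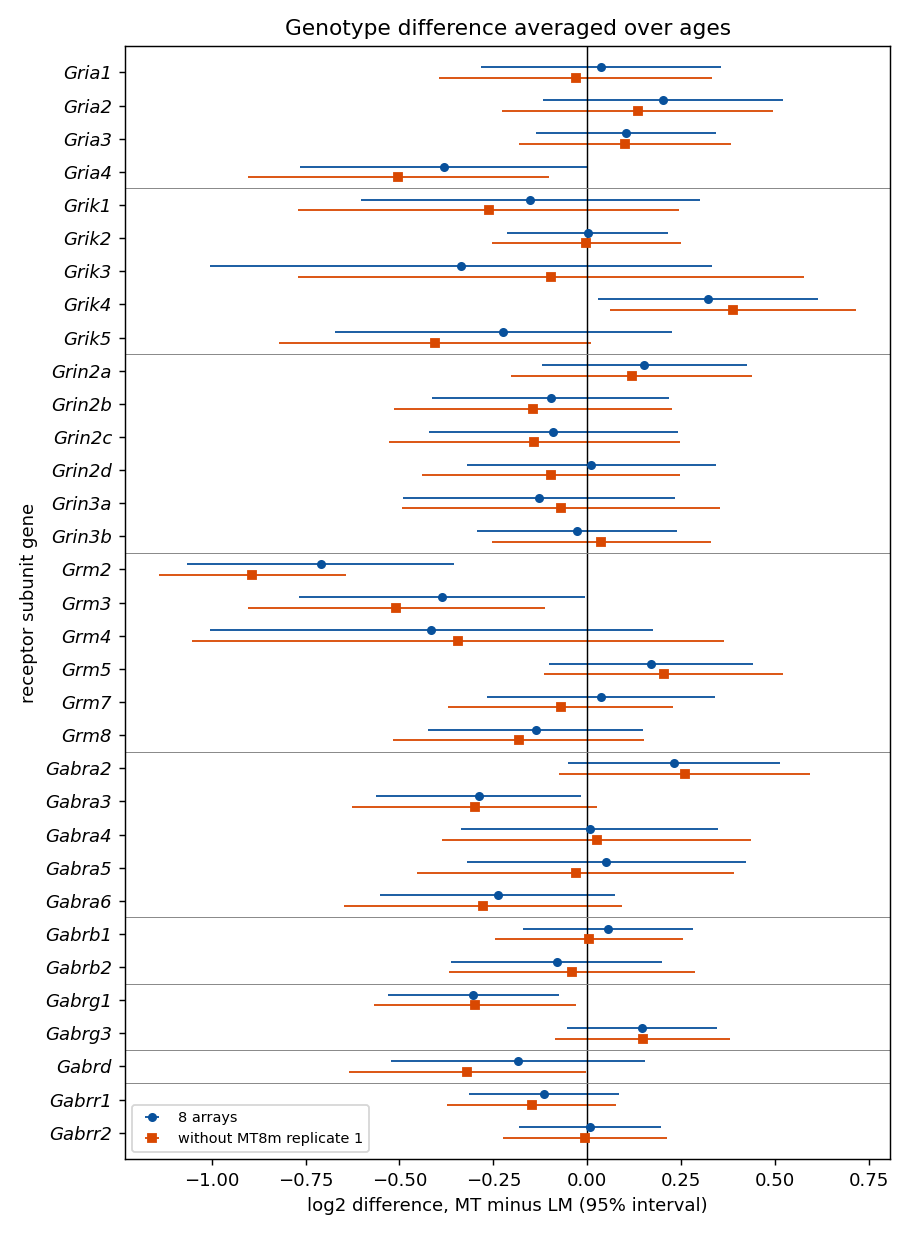
Genotype difference averaged over ages (MT minus LM, log2) of the 33 subunits with 95% intervals from limma, from all 8 arrays and without MT8m replicate 1. The Grm2 interval lies furthest from 0 in both fits, at -0.71 and -0.89, and most other intervals include 0.

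By age, no subunit passed an adjusted p under 0.05, and 0% of all probe sets passed in LM, in MT, averaged over genotypes or in the interaction. At an unadjusted p under 0.05, LM had no subunit higher (background 1.47%) or lower (background 1.99%) at 8 months. In MT, Grin2b was higher (background 3.24%) and Grin3a and Gabra2 were lower (background 2.46%). Averaged over genotypes, Gria1 was higher (background 3.25%) and Grin3a, Grm7, Gabra2 and Gabrg1 were lower (background 3.23%). The interaction was positive for Grm2 (background 1.54%) and negative for Gabra2 (background 1.04%). The median age difference was -0.057 in LM and 0.014 in MT, against -0.019 and 0.0044 over all genes. The age and genotype comparisons share arrays, so a low MT4m or LM4m value enters both.

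When MT8m replicate 1 was left out, again no subunit and 0% of all probe sets passed for age in MT, for age averaged over genotypes or in the interaction. At an unadjusted p under 0.05, MT then had no subunit higher (background 4.03%) and Grik1, Grin3a, Grm7 and Gabra2 lower (background 3.04%). The median age difference in MT was then -0.053, against -0.0056 over all genes. Averaged over genotypes none was higher (background 3.71%) and Grm2 and Grm7 were lower (background 3.68%). No interaction was below 0.05 in either direction (backgrounds 2.67% and 1.68%). With all arrays, MT8m replicate 1 included, non-overlapping ages were found in LM for 1 subunit upward (background 15%) and 5 downward (background 15.4%). In MT, also with that array included, they were found for 6 upward (background 19.6%) and 7 downward (background 16.5%).

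**Figure D4:**
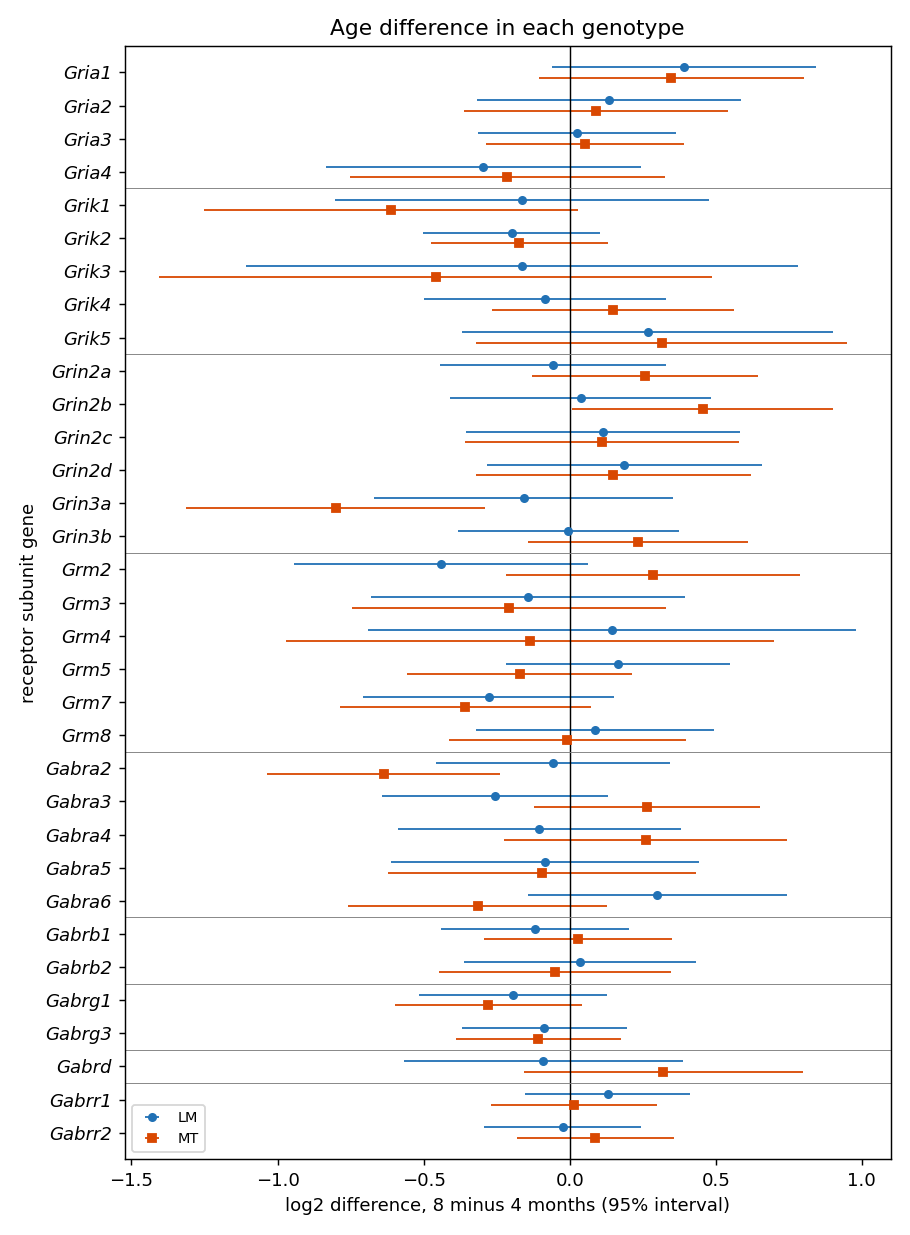
Age difference (8 minus 4 months, log2) of the 33 subunits in LM and in MT with 95% intervals from limma on all 8 arrays. Grin3a (-0.80) and Gabra2 (-0.64) in MT lie below 0 with their whole intervals, and Grin2b (0.46) in MT lies above it. The LM intervals of all these include 0. No interaction passed, so the age differences of the genotypes were not shown to differ.

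Among the genes of proteins that hold, move and feed these receptors, none passed an adjusted p under 0.05 in limma in any contrast. Of 18 measured auxiliary subunits of AMPA and kainate receptors, 1 was higher and 2 were lower in MT at an unadjusted p under 0.05 averaged over ages, against 2.54% and 3.22% of all probe sets. Nptx1, a pentraxin that clusters AMPA receptors, gave 0.41 ± 0.16 (SE), while Cacng5 and Shisa9, both AMPA receptor modulators, gave -0.34 ± 0.10 and -0.38 ± 0.16. With age, 1 was higher and 2 were lower, against 3.25% and 3.23%. Cacng5 measured from 3.81 to 4.25 at 4 months and from 4.41 to 4.99 at 8 months with no overlap, a difference of 0.64 ± 0.10 with an unadjusted p of 0.000198 and an adjusted p of 0.393. Shisa9 gave -0.51 ± 0.16 with age, and Neto2, an auxiliary subunit of kainate receptors, gave -0.40 ± 0.14.

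Of 24 excitatory scaffold and kinase genes, 1 was higher and 1 lower in MT at an unadjusted p under 0.05, against 2.54% and 3.22% of all probe sets. These were Homer3, at 0.30 ± 0.11 (SE), and Lrrtm2, a synaptic adhesion protein, at -0.23 ± 0.082, and Homer2 gave -0.30 ± 0.13. With age Lrrtm2 gave -0.21 ± 0.082, Dlgap3, a scaffold protein, 0.31 ± 0.14, and Camk2b, a kinase subunit, 0.26 ± 0.13. None of the 14 inhibitory scaffold and traffic genes was below 0.05 in either averaged contrast. The smallest p for genotype were those of Trak2 (0.30 ± 0.14), Nlgn2 (-0.27 ± 0.15) and Gabarap (-0.16 ± 0.10), and for age those of Slitrk3 (0.27 ± 0.12), Nlgn2 (0.23 ± 0.15) and Gabarapl1 (0.14 ± 0.10).

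Of 16 genes of transmitter synthesis and transport, 2 were lower in MT at an unadjusted p under 0.05 and none was higher, against 3.22% and 2.54% of all probe sets. Slc38a3, a glutamine carrier of astrocytes, gave -0.54 ± 0.14 (SE) with an unadjusted p of 0.00367 and an adjusted p of 0.685, and -0.67 without MT8m replicate 1. Slc17a6, the vesicular glutamate transporter of thalamic neurons and itself on the thalamic marker list, gave -1.02 ± 0.41, and -0.63 without that array. The 10 thalamic marker genes averaged from -0.17 to 0.37 on the LM arrays and from -0.48 to 0.34 on the MT arrays. Slc38a1, another glutamine carrier, gave -0.21 ± 0.11. With age, 2 were higher and none lower, against 3.25% and 3.23%. They were Slc1a6, a neuronal glutamate transporter, at 0.34 ± 0.12 and Slc38a3 at 0.36 ± 0.14, and the astrocytic glutamate transporter Slc1a3 gave 0.23 ± 0.20.

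Of 10 measured receptor genes outside the rule, none was below 0.05 by genotype, and 1 was by age, where it was lower, against 3.23% of all probe sets. That was Grid1, a delta-type glutamate receptor, at -0.37 ± 0.13 (SE). The smallest p by genotype were those of Glra2, a glycine receptor subunit (-0.24 ± 0.12), Gabrq (0.17 ± 0.087) and Grid1 (-0.19 ± 0.13), and by age also Glra3 (-0.38 ± 0.18) and Gabrp (0.16 ± 0.093). The medians of the 5 lists for genotype averaged over ages ran from -0.17 to 0.019, against -0.012 over all genes.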

How the data were processed

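Hippocampal RNA of 8 samples was hybridised to 1 Affymetrix Mouse Genome array each. The deposited log2 values come from RMA, run by the authors in affy, whose version is not given in the sources used here. They cover 45101 probe sets, including 64 controls. The values ran from 0.979 to 12.9 and the probe set means had a median of 2.47. That is unusually low for this method, and the offset is unknown. Levels of different genes were not compared with each other, only placed relative to the median of the probe sets. Array medians lay between 2.44 and 2.51 and correlations between arrays between 0.985 and 0.993. Precision is limited by how few arrays there are, and scan or slide batches were not given in the sources used here.

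The 45037 other probe sets were fitted with limma 3.58.1 in R 4.3.3, with group means over all 8 arrays and 4 residual degrees of freedom. This is the package the study's methods name. Contrasts were genotype at each age and averaged, age in each genotype and averaged, their interaction, and an F test over the 4 groups. Two-sided p-values were Benjamini-Hochberg adjusted across all 45037, with a threshold of 0.05. Without MT8m replicate 1, MT8m held 1 array, which is assumed to vary like the other groups. Gene names came from the probe annotation, with 34945 probe sets of 1 symbol, 932 of several and 9160 of none, updated through RefSeq (GRCm38.p6, names and gene order only), which held 34741. All 33 members were found there.

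Levels of marker lists are the mean over the genes of the log2 value minus the gene's own mean over the arrays. Every member is named. Array values are given for a fixed set of well-known subunits and for the 5 members with the smallest p in each contrast, in full or as a range, and from each pathway list the 3 genes with the smallest p in both averaged contrasts. The members and lists were chosen with earlier results of these data known. The fit was tested on simulated data. Alternatives left out dim probe sets, used cyclic loess, another prior of the spread, 1 probe set per gene, the mean of all probe sets, only the arrays compared, a replicate block, or each array in turn.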

Additional observations from a re-analysis of the deposited data

How the results depend on the processing

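Of 35 differences of single subunits (the 5 with the smallest p in each of 7 contrasts), 34 kept their sign under every alternative that could be fitted, and 1 of 511 values passed an adjusted p under 0.05, that of Grm2 by genotype averaged over ages without MT8m replicate 1. The exception in sign was Gabra6 by age in LM, at 0.30 and at -0.0053 without LM8m replicate 2. Uncalled values that change sign are not counted as reversed. The 35 were picked by their small p in these same data. Leaving out dim probe sets, another prior of the spread, or dropping an array outside the contrast cannot change a difference. Nor can testing 1 probe set per gene, fitting only the arrays compared, or a replicate block. A kept sign is therefore weak evidence for these differences.

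Counts of subunits at an unadjusted p under 0.05 moved more. For the alternatives here and below, the share of all probe sets was computed only without MT8m replicate 1. The other counts show how far they move and have no background to be read against. Without dim probe sets they were 0 for genotype at 8 months, 2 for genotype averaged, 3 for age averaged and 0 for the interaction. Cyclic loess gave 3 for age averaged and 1 for the interaction, and a trended and robust prior gave 1 for genotype at 8 months and 1 for the interaction. The mean of all probe sets gave 5 for age in MT and 2 for age averaged, and the fit of only the 4 arrays compared gave 1 for age in LM. The causes were not tested.

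Leaving out each array in turn gave 2 to 8 subunits for genotype at 4 months (8 without LM4m replicate 2), 0 to 4 at 8 months (0 without MT8m replicate 2), and 1 to 10 averaged (1 without LM4m replicate 1 or MT4m replicate 2, 10 without LM4m replicate 2). The ranges were 0 to 2 for age in LM (2 without any 1 LM array), 2 to 5 in MT (5 without MT4m replicate 2 or MT8m replicate 2), 1 to 5 averaged (1 without LM4m replicate 1), 0 to 3 for the interaction (0 without MT4m replicate 1 or MT8m replicate 1) and 2 to 8 for the F test (8 without LM4m replicate 2). Subunits passing an adjusted p for genotype averaged ranged from 0 to 1. The median over the subunits ranged from -0.12 to 0.0305 for genotype at 8 months, from -0.12 to 0.048 for age in LM and from -0.10 to 0.097 for the interaction.

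The number in the sample titles is shared by arrays of 1 genotype at the 2 ages. With it as a replicate block the interaction was below 0.05 for 4 subunits, and no subunit passed an adjusted p. Genotype differences could not be fitted with it. Deviations of same-numbered arrays correlated at 0.24 in LM and -0.17 in MT. This is 1 correlation per genotype, and the MT value includes MT8m replicate 1. It cannot settle whether the numbers pair the samples, and they were not taken to pair them. A block with the MT numbers crossed, chosen after seeing the data, gave 1 subunit for age in LM and 5 for the interaction.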

Other observations

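Across the other probe sets of the subunit genes that lay above the median of all probe sets (19 probe sets of 14 genes), 15 had the sign of the probe set used for the averaged genotype difference and 15 for the averaged age difference. In the RefSeq gene order, Gabra4 and Gabrb1 are neighbours and differed by 0.0071 and 0.056 between genotypes, and Gabra5 and Gabrg3 by 0.052 and 0.15.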
